A study of Mus musculus with 24 samples.

Results

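Of the 21960 genes in the table, 172 encode chemosensory receptors of 3 families and were chosen by symbol alone: 122 Vmn2r genes, 15 Taar genes and 35 Tas2r genes. All 172 were found by identifier in the GENCODE M21 annotation of GRCm38, 171 as protein-coding genes and 1 as a pseudogene, and together they span 1000 kb of annotated exon. Over all 24 libraries these genes received 187 of 9478519 counts. At least 1 count was listed for 88 of them and no count for 84.

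Vmn2r genes encode type 2 vomeronasal receptors, large G protein-coupled receptors that detect peptide and protein pheromones in the basal neurons of the vomeronasal organ. Taar genes encode trace amine-associated receptors, most of which detect volatile amines in the olfactory epithelium, and Tas2r genes encode the bitter taste receptors of taste cells. Transcription of these receptors is restricted largely to sensory cells of the nose and tongue, although Tas2r genes are known from some other epithelia. Reads assigned to such genes in blood or liver are sometimes used as a rough gauge of reads that do not come from the tissue's own messenger RNA, for example reads from genomic DNA. The counts alone do not tell RNA from DNA, and the origin of the reads was not tested.

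The libraries were made from extracellular vesicles, the membrane-enclosed particles that cells shed into blood, precipitated from plasma of male C57BL/6J mice with the polymer reagent ExoQuick. There were 4 groups of 6 libraries: bile duct ligation (BDL) at day 8 after surgery, sham at day 8, BDL at day 15 and sham at day 15. Ligation blocks the outflow of bile and leads to cholestasis and liver fibrosis. The labels give no transgene or drug and no age, they name the tissue as liver but the site as extracellular vesicles, and their treatment text names ligation for the sham samples too, so the groups follow the sample titles. Polymer precipitation does not separate vesicles from other plasma particles. The 10 hepatocyte genes examined, among them Alb and Apob, made up 0.825% ± 0.618 of counts in BDL and 0.0102% ± 0.00472 in sham libraries at day 15, and 0.116% ± 0.117 in BDL and 0.00748% ± 0.00351 in sham libraries at day 8 (SD, n = 6 each). Without BDL library 3 of day 8, which had 0.353%, the day 8 mean in BDL was 0.0689%. The mean share of these hepatocyte genes was thus under 1% in every group. In such bulk samples, fewer contributing cells and less RNA per cell cannot be told apart. Total counts per library were 167939 to 937963 (BDL) and 101733 to 824640 (sham) at day 8, and 315404 to 465744 (BDL) and 157133 to 351201 (sham) at day 15. BDL day 8 library 3 stood apart from the rest of its group in receptor gene counts, and the main values that rest on it are also given without it.

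Reads can be assigned to single genes of these families with unequal certainty, because close paralogs share long stretches of sequence. The share of 75-base windows that occur in transcripts of no other gene of the table was 87.8% over the Vmn2r genes, 80.7% over the Taar genes and 99.7% over the Tas2r genes. In 22 of 122 Vmn2r genes less than 50% of the windows were unique. The following stretches of coding sequence show both cases, read from GENCODE M21 transcripts. The Vmn2r114 window (GRCm38, chr17:23310305-23310379, minus strand, exon 3, coding bases 748 to 822) also occurs unchanged in Vmn2r116, Vmn2r117 and Vmn2r111. The Vmn2r112 window (chr17:22603090-22603164, plus strand) differs from it by 1 base, given as a capital letter. The first 75 coding bases of Tas2r119 (chr15:32177290-32177364, plus strand) and of Taar7d (chr10:24027222-24027296, plus strand) occur in no other member.
Vmn2r114: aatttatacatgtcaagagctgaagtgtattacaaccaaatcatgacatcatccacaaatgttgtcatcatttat
Vmn2r112: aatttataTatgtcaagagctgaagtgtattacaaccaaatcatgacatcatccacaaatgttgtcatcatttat
Tas2r119: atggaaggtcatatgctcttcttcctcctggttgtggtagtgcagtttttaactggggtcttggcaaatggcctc
Taar7d: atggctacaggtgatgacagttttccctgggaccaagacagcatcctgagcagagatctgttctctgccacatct
Counts of single Vmn2r genes are therefore uncertain where paralogs share such stretches, whereas sums over the family do not depend on how reads were divided within it.

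The summed counts of the 172 genes were highest in BDL libraries of day 15. Numbered 1 to 6, the BDL libraries of day 15 had 34, 56, 1, 16, 40 and 14 counts, and the sham libraries of day 15 had 0, 0, 0, 0, 1 and 0. As counts per the library's total in the table, scaled as CPM, the lowest, median and highest BDL library stood at 3.02, 64.1 and 158, while 5 sham libraries were at 0 and sham library 5 was at 3.85. So 5 of 6 BDL libraries lay above every sham library, and BDL library 3, with its single count, lay below sham library 5. The mean was 72.6 ± 55.9 CPM in BDL and 0.642 ± 1.57 CPM in sham libraries (SD, n = 6 each).

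Pooled over libraries, the receptor genes received 161 of 2209399 counts in BDL and 1 of 1490102 in sham libraries at day 15, a ratio of 109 with a 95% exact interval from 19.2 to 4315 for counting error alone. Because the sham side rests on 1 count, removing sham library 5 leaves only a lower bound: the pooled share in BDL was then at least 29.9-fold higher, taking 3 counts over the group as the floor. Leaving out any other library kept the ratio between 83.0 and 127. On the log2 scale, with 0.5 counts added to each sum, the difference between BDL and sham was 4.27 (SE 0.80). Where sums are 0, such log2 values depend on the counts added and on the library's total. Since the genes were proposed with results of these data known, the sums are described and no p-value is given for them.

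At day 8 most libraries of both groups had no or very few such counts. BDL libraries 1 to 6 had 3, 0, 18, 2, 0 and 0 counts, and sham libraries had 0, 1, 0, 0, 0 and 1. In CPM, BDL library 3 stood at 59.2 and BDL library 1 at 17.9, the other 4 BDL libraries ran from 0 to 2.58, and the highest sham library was at 3.70. Thus 2 of 6 BDL libraries exceeded all sham libraries, and the other 4 overlapped with them. Of the 23 counts in BDL libraries, 78.3% came from library 3.

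The pooled ratio of BDL to sham at day 8 was 10.27 (95% exact interval 2.54 to 89.9). Without BDL library 3 it was 2.48 (5 against 2 counts, interval 0.406 to 26.0), and without sham library 2 it was 18.5 (interval 3.01 to 762). The log2 difference was 1.05 (SE 1.20), smaller than its error. In the libraries numbered 1 to 3, which were shallower, mean levels were 25.7 CPM in BDL and 1.23 in sham. In the deeper libraries 4 to 6 they were 0.859 in BDL and 0.404 in sham, with a log2 difference of -0.01. At day 15 the same split gave 89.6 CPM in BDL and 0 in sham for libraries 1 to 3, and 55.5 in BDL and 1.28 in sham for libraries 4 to 6.

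**Figure D1:**
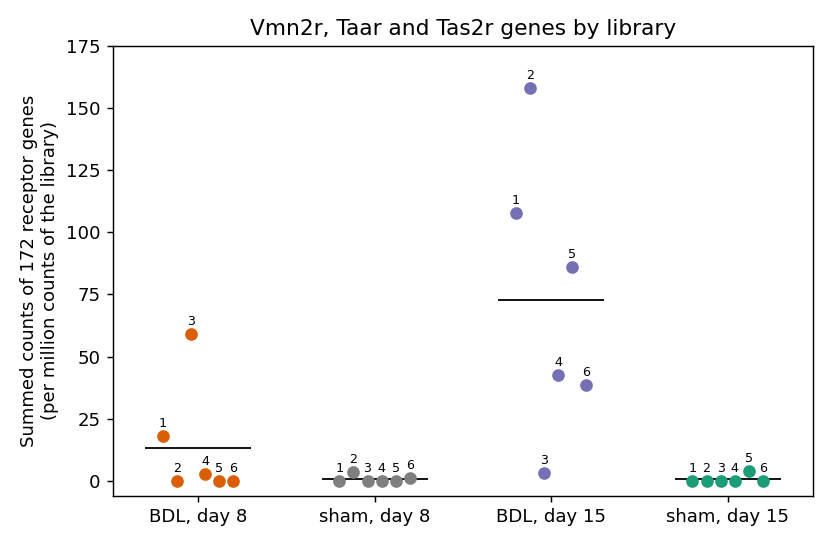
Summed counts of the 172 Vmn2r, Taar and Tas2r genes in CPM, 1 point per library labelled with its number, for BDL and sham at day 8 and day 15. Horizontal marks are group means. BDL day 15 libraries spread from 3.02 to 158, and no sham library exceeds 3.85.

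Between the days, the pooled counts differed in ligated mice. Day 15 against day 8 gave a ratio of 9.67 in BDL (95% exact interval 6.23 to 15.7), and 40.1 (interval 16.8 to 125) without BDL day 8 library 3. On the log2 scale the change was 3.58 (SE 1.33) in BDL and 0.37 (SE 0.57) in sham libraries. In sham mice 1 count at day 15 stood against 2 counts at day 8, both groups at or under the floor of 3 counts, and no fold is given. The BDL effect of day 15 minus that of day 8 was 3.22 (SE 1.44), again as a description.

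BDL libraries within a group differed far more than counting error. For the summed counts of the receptor genes, chi-square per degree of freedom against a common share was 14.9 in BDL libraries at day 15 and 25.2 at day 8. In sham libraries it was 0.947 at day 15 and 0.940 at day 8, from 1 and 2 counts in all, too few to show such a spread. The BDL libraries of day 15 thus did not share 1 level, and the highest of them held 34.8% of the group's receptor counts.

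The counts were spread over many genes in single reads. Of the 172 genes, 36 had 1 count, 27 had 2, 16 had 3 and 9 had 4 or more over all libraries. Among all pairs of a gene and a library, 138 had a count and 102 of these were a count of 1. The highest value of any gene in any library was 5. In BDL libraries 1 to 6 of day 15, the number of receptor genes with a count was 22, 44, 1, 10, 27 and 11, against at most 1 in any sham library. Brought to the smallest total of 101733 counts, the mean number of receptor genes with a count was 6.67 ± 5.17 in BDL and 0.0653 ± 0.160 in sham libraries at day 15, and 1.28 ± 2.24 in BDL and 0.0833 ± 0.152 in sham libraries at day 8 (SD, n = 6 each). Without BDL library 3 of day 8, which alone gave 5.61, the day 8 mean in BDL was 0.416 ± 0.792 (SD, n = 5).

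**Figure D2:**
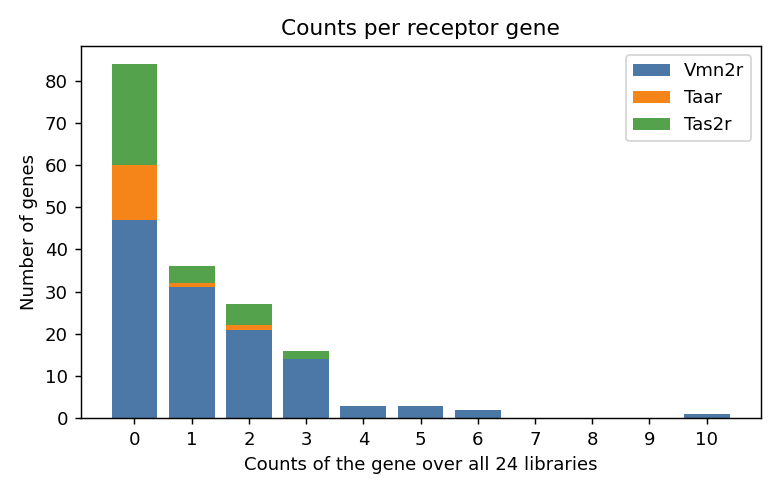
Number of the 172 receptor genes by their summed counts over the 24 libraries, with bars stacked by family. The bar at 0 holds 84 genes, 36 genes have 1 count, and the highest gene has 10.

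Counts in sham libraries touched 2 of the 172 genes, and 86 genes had counts in BDL libraries alone. This split follows the totals and is no trait of single genes. Sham libraries held 2 receptor counts at day 8 and 1 at day 15, against 23 and 161 in BDL. Of 826 Olfr genes with a count, likewise, only 39 had a count in sham libraries. The row named Vmn2r29 with 10 counts (ENSMUSG00000110105, GRCm38 chromosome 7, 7213017 to 7278289, minus strand) had 1 count in sham library 2 of day 8 and 1 in sham library 5 of day 15. In BDL libraries of day 15 it had 0, 1, 0, 1, 4 and 2 counts, and it had none in BDL libraries of day 8. GENCODE M21 gives this identifier the symbol Gm45844, and a second row with the symbol Vmn2r29 (ENSMUSG00000095730) lies within its bounds, so reads of these loci may have been divided between them. Vmn2r57 had 1 count in the BDL libraries of day 15 and 1 in sham library 6 of day 8.

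The Vmn2r genes that followed in number of counts were found in BDL libraries alone. Vmn2r42 (chromosome 7, 8182372 to 8200320, minus strand) had 2, 0, 0, 3, 1 and 0 counts in BDL libraries of day 15 and none elsewhere. Vmn2r114 (chromosome 17, 23285392 to 23312537, minus strand) had 3 counts in BDL library 3 of day 8 and 2, 0, 0, 0, 1 and 0 in BDL libraries of day 15. Vmn2r38 had all of its 5 counts in BDL library 5 of day 15. Each of these receptors was thus seen in 3 libraries at most, and Vmn2r38 in 1.

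Further Vmn2r genes showed the same sparse pattern. Vmn2r8 had 1 and 4 counts in BDL libraries 1 and 2 of day 15. Its neighbour on chromosome 5, Vmn2r9, had 2 and 2 in BDL libraries 4 and 5 of day 15 and 1 in BDL library 3 of day 8. Vmn2r58 had 3 and 1 counts in BDL libraries 1 and 2 of day 15. Vmn2r76 had 1, 2 and 1 in libraries 1, 2 and 6 of that group, and Vmn2r37 had 1 and 2 in libraries 1 and 2 and 1 in BDL library 3 of day 8. Only 14.6% of the windows of Vmn2r37 were unique, against 100% of those of Vmn2r76.

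Bitter taste receptor genes contributed 19 counts in BDL libraries of day 15, 1 in BDL libraries of day 8 and none in either sham group. Tas2r119 (chromosome 15, 32177289 to 32178294, plus strand) had 3 counts, all in BDL library 2 of day 15. Tas2r144 had 1 and 2 counts in BDL libraries 4 and 5, and Tas2r109 had 2 in BDL library 4 of that day. Of 35 Tas2r genes, 10 had a count at day 15 after ligation. In library order the BDL libraries of day 15 had 5, 7, 0, 3, 4 and 0 Tas2r counts.

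Trace amine receptor genes had 3 counts in all, each in BDL libraries of day 15. Taar7d (chromosome 10, 24027222 to 24028298, plus strand) had 1 count in library 2 and 1 in library 6, and Taar2 had 1 in library 6. Taar1, best known as a trace amine receptor outside the olfactory epithelium, had none in any library, as did the remaining 12 Taar genes. With 3 counts in BDL and 0 in sham libraries at day 15, both at or under the floor of 3 counts over a group, no fold is given.

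No receptor gene reached the level needed for a test of its own. Genes were tested with edgeR's quasi-likelihood test after a filter on low counts that kept 4112 genes, and none of the 172 was among them. At day 15 this fit called 187 genes between BDL and sham (4.55% of those tested), and at day 8 it called 129 (3.14%). Day 15 against day 8 called 179 in BDL (4.35%) and 0 in sham libraries, and the difference of the BDL effect between days called 0.

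With every gene of at least 1 count in the fit, 88 receptor genes entered, and edgeR called 0 of them in any of the 5 comparisons at an adjusted p under 0.05. The share called among all 18710 genes in that fit was 3.68% for BDL against sham at day 15, 1.59% at day 8, 3.48% for day 15 against day 8 in BDL, 0.802% in sham, and 0.273% for the difference between days. At an unadjusted edgeR p under 0.05 there were 6 of these 88 genes at day 15, against 3169 of all 18710 genes. That share was below the one over all genes. All 6 were higher in BDL: Vmn2r42, Vmn2r8, Vmn2r38, Vmn2r58, Vmn2r76 and Vmn2r9. These genes had no count in sham libraries of day 15, so no other direction was possible. Their fitted log2 changes, given as a description, ran from 2.69 to 3.27 with edgeR adjusted p from 0.175 to 0.269. The corresponding number was 1 at day 8 (Vmn2r114), against 1691 of all genes, again a share below the one over all genes. For day 15 against day 8 in BDL it was 18, against 2940, a share above the one over all genes. It was 0 in the other 2 comparisons, against 1122 for the difference between days and 1396 in sham. DESeq2 was run on the filtered genes alone and so held no receptor gene.

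Larger receptor families of the same kind were also higher in BDL libraries of day 15. Olfr genes, 1116 in the table, encode the odorant receptors of the main olfactory epithelium, and Vmn1r genes, 204 in the table, encode type 1 vomeronasal receptors. Like the members, these families were chosen with earlier results of these data known. Their p-values on both days therefore describe the separation of the libraries and are no independent test. Summed Olfr counts in BDL libraries 1 to 6 of day 15 were 459, 836, 42, 264, 371 and 154, against 3, 1, 1, 8, 11 and 1 in sham libraries. In CPM they averaged 977 ± 810 in BDL and 15.5 ± 15.0 in sham libraries (SD, n = 6 each), and each of the 6 BDL libraries lay above all sham libraries (exact permutation test, two-sided, p = 0.00216, the smallest possible, adjusted p = 0.00433 over 6 tests). Vmn1r genes averaged 75.3 ± 44.7 CPM in BDL and 1.77 ± 1.97 in sham libraries at day 15 (exact permutation test, p = 0.00216, adjusted p = 0.00433, 6 of 6 BDL libraries above all sham libraries). Without Vmn1r58, the Vmn1r gene of most counts, which was chosen after its values were seen, the means were 44.3 ± 33.6 CPM in BDL and 1.77 ± 1.97 in sham libraries, and the p-values of the exact permutation test did not change.

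At day 8 the Olfr genes again had their highest value in BDL library 3. It had 348 Olfr counts, the other BDL libraries had 5 to 21, and the sham libraries had 0 to 7. Means were 231 ± 450 CPM in BDL and 13.0 ± 14.4 in sham libraries (SD, n = 6 each; exact permutation test, p = 0.0433, adjusted p = 0.0433), with 3 of 6 BDL libraries above all sham libraries. Leaving out BDL library 1, 2 or 3 each gave an adjusted p of 0.0866 in the exact permutation test, and leaving out sham library 2, 3, 4, 5 or 6 gave 0.0606 to 0.0779. With same-numbered libraries taken as pairs, Olfr CPM was higher in BDL in 5 of 6 pairs (exact sign-flip permutation test, p = 0.0625, adjusted p = 0.0625), so this difference was not called in the paired test. Without BDL library 3 the mean in BDL was 48.0. Vmn1r genes averaged 15.9 ± 18.7 CPM in BDL and 0.622 ± 1.52 in sham libraries at day 8, without overlap (exact permutation test, p = 0.00216, adjusted p = 0.00433), and 8.61 ± 5.76 in BDL without library 3 (n = 5). In pairs they were higher in BDL in 6 of 6 (exact sign-flip permutation test, p = 0.0313, adjusted p = 0.0375). This separation rested on Vmn1r58: without that gene the BDL libraries of day 8 had 0, 1, 14, 0, 1 and 1 Vmn1r counts and each sham library had 0, and the exact permutation test gave an adjusted p of 0.0606.

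Across the 6 BDL libraries of day 15 the order by Vmn2r, Taar and Tas2r CPM was the same as the order by Olfr CPM, from library 2 down through 1, 5, 4 and 6 to library 3. Pearson's r was 0.967 over these 6 libraries and 0.909 without the 2 farthest from the median, and Spearman's rho was 1.0. The same order held for the number of genes of any kind detected at 101733 counts, with r of 0.994. The summed share was less closely ordered with the share of hepatocyte genes (r = 0.357, rho = 0.543) or with total counts (r = 0.0419, rho = -0.0857). These 4 correlations are descriptions, since the points share libraries and a denominator, and the number of genes detected includes the receptor genes.

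**Figure D3:**
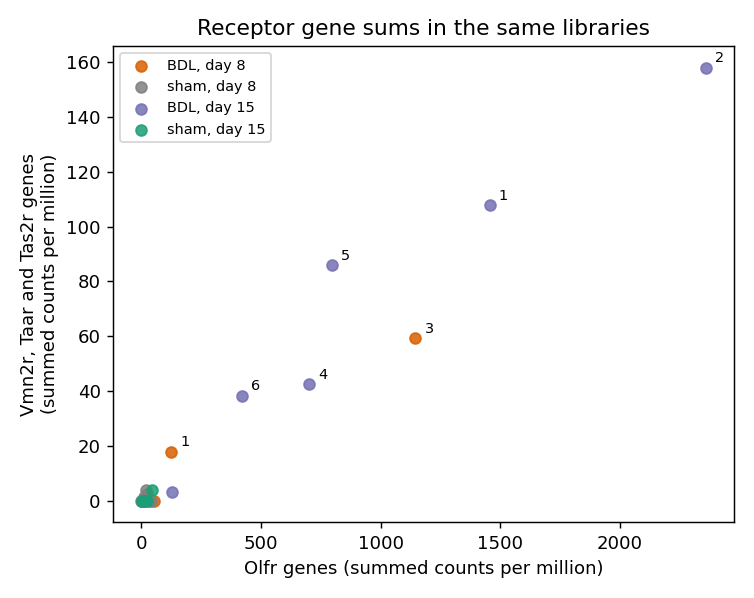
CPM of the 172 receptor genes (vertical axis) against those of 1116 Olfr genes (horizontal axis), 1 point per library on linear axes, with numbers at the libraries above 10 CPM on the vertical axis. BDL libraries 1, 2, 4, 5 and 6 of day 15 and BDL library 3 of day 8 lie away from the origin, while BDL library 3 of day 15 (3.02) and all sham libraries lie near it, 9 of 12 sham libraries at 0 receptor counts.

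The number of genes detected differed between groups in opposite directions on the 2 days. Brought to 101733 counts, 8956 ± 530 genes had a count in BDL and 8241 ± 293 in sham libraries at day 15 (SD, n = 6 each; exact permutation test, two-sided, p = 0.026, adjusted p = 0.039). At day 8 it was 7904 ± 173 in BDL and 8196 ± 230 in sham libraries (p = 0.0346, adjusted p = 0.0416, exact permutation test). BDL library 3 of day 8, with its raised receptor counts, had 8102 genes and lay within the range of the sham libraries. At day 15 leaving out BDL library 1, 2 or 5 or sham library 2 or 6 gave an adjusted p of 0.0519 in the exact permutation test. At day 8 leaving out BDL library 2, 5 or 6 or sham library 1, 2 or 3 gave 0.0649 to 0.0693. With same-numbered libraries as pairs, fewer genes were detected in BDL in 6 of 6 pairs at day 8 (exact sign-flip permutation test, p = 0.0313, the smallest possible, adjusted p = 0.0375).

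Per length of exon, the receptor families did not share 1 rate. In the pooled BDL libraries of day 15 the 172 genes received 0.161 counts per kb of annotated exon (95% exact interval 0.137 to 0.188, counting error alone). The rate was 0.146 for Vmn2r genes (0.123 to 0.173), 0.190 for Taar genes (0.0392 to 0.555) and 0.557 for Tas2r genes (0.335 to 0.869). Olfr genes stood at 0.592 (0.567 to 0.618), so their interval overlapped that of the Tas2r genes and not that of the Vmn2r genes.

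The choice of length changed this order in part. Annotated exons of Vmn2r genes span 949.9 kb, of which 312 kb are coding, whereas 49 of the 172 genes, among them all 35 Tas2r genes, have a single exon. Per kb of coding sequence the rate was 0.445 for Vmn2r, 0.192 for Taar, 0.577 for Tas2r and 2.02 for Olfr genes. The rate of the 172 genes over that of Olfr genes was 0.272 by exon length and 0.221 by coding length. Within single BDL libraries of day 15, the Olfr rate per kb of exon was 2.58 to 11.7 times that of the 172 genes, higher in 6 of 6 libraries.

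**Figure D4:**
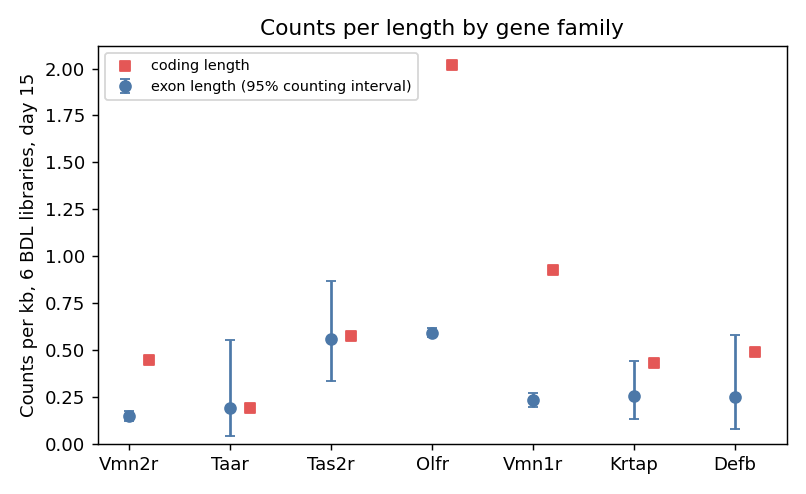
Counts per kb in the pooled BDL libraries of day 15, by gene family, per kb of annotated exon with 95% exact counting intervals and per kb of coding sequence. Exon rates run from 0.146 for Vmn2r to 0.592 for Olfr genes, and coding rates from 0.192 for Taar to 2.02 for Olfr genes.

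Other families that are silent in most tissues gave rates of the same order. In BDL libraries of day 15, Krtap genes, which encode keratin-associated proteins of hair, had 0.254 counts per kb of exon (0.131 to 0.443). Defb genes, which encode beta-defensins, had 0.249 (0.0808 to 0.581). Vmn1r genes had 0.231 (0.195 to 0.272), over the 169 of 204 genes with a known exon length. The rate of the 172 genes was below these, but without the 3 genes of most counts in each set it was 1.10 times the Krtap rate, 2.40 times the Defb rate and 1.22 times the Vmn1r rate. Krtap genes held 12 counts and Defb genes 5 in these libraries, so their rates without 3 genes rest on very few counts. The rates of all these families therefore rest in part on few genes, and the ratios are not read as differences.

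Counts of single receptor genes followed their length weakly. Across the 172 genes, Spearman's rho between exon length and counts in BDL libraries of day 15 was 0.204 and Pearson's r was 0.164, as a description across genes that share libraries and sequence. Against an even rate per kb, chi-square per degree of freedom was 3.26. By place in the genome, the 52 Vmn2r genes of chromosome 7 had 70 counts (0.193 per kb), the 31 of chromosome 17 had 23 (0.0782 per kb) and the 9 of chromosome 6 had 3 (0.0382 per kb). Exons of 14 of the 172 genes overlap exons of other genes, and these 14 held 29 of the 187 counts.

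Signalling genes that act beside the receptors in sensory cells included no gene called between BDL and sham. A list of 41 such genes held G protein subunits, channels, cyclases and receptor transport factors, of which 26 had a count and 2 passed the filter for testing. Gnai2, an inhibitory G protein subunit that is present in blood cells as well as in apical vomeronasal neurons, had a log2 change between BDL and sham of -0.00 (SE 0.15, edgeR adjusted p = 0.994) at day 15 and 0.08 (SE 0.15, adjusted p = 0.872) at day 8. Itpr3, a calcium release channel that also acts in taste cells, had -0.90 (SE 0.34, adjusted p = 0.129) at day 15 and -0.57 (SE 0.32, adjusted p = 0.419) at day 8. Neither was called. With every gene of at least 1 count in the edgeR fit, 0 of 26 were called between BDL and sham on either day. For day 15 against day 8 in BDL 1 was called, Cngb1 (edgeR adjusted p = 0.0162). Among all 18710 genes of that fit the share called was 3.68% at day 15, 1.59% at day 8 and 3.48% for BDL over time. With 26 genes, such small numbers of calls are not read as a trait of the list. Cngb1, which encodes a subunit of the olfactory and rod photoreceptor channels, had 12 counts in BDL libraries of day 15 and 0 in those of day 8, and 2 in sham libraries of each day. Summed over the 41 genes, the list held 401 ± 40.4 CPM in BDL and 455 ± 45.5 in sham libraries at day 15 (SD, n = 6 each), most of them on Gnai2.

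The next genes of that list by counts were Plcb2, a phospholipase of taste and blood cells, Ric8b, a chaperone of G protein subunits including the olfactory one, and Ano1, a chloride channel. In pooled CPM at day 15, Plcb2 stood at 14.0 in BDL and 16.8 in sham, Ric8b at 12.2 in BDL and 10.7 in sham, and Ano1 at 5.88 in BDL and 16.1 in sham libraries. At day 8, Plcb2 stood at 13.4 in BDL and 20.9 in sham, Ric8b at 12.8 in BDL and 16.1 in sham, and Ano1 at 9.17 in BDL and 3.67 in sham libraries, so the order of the groups for Ric8b and Ano1 was opposite on the 2 days. None of these reached the filter, and none was called in the fit without it.

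Most defining markers of the sensory cells had few or no counts. The 6 olfactory neuron markers summed to 0 to 6 counts per library in BDL and 1 to 3 in sham at day 15, and Omp, the olfactory marker protein, and Cnga2, a channel subunit, had 0 counts over the BDL libraries of that day. Of the 4 vomeronasal markers, summing to 0 to 11 counts per BDL library and 1 or 2 per sham library of day 15, Trpc2, the transduction channel, had 1 count in BDL. Calr4, a calreticulin of vomeronasal neurons, had 7 in BDL and 0 in sham at day 15, and 0 at day 8. Gnao1, which is also widely expressed in nervous tissue, had 19 in BDL and 7 in sham. Of 7 taste cell markers, summing to 4 to 13 counts per BDL library and 0 to 9 per sham library of day 15, Gnat3, Tas1r1 and Calhm1 had 0 counts in every library. At day 15 Plcb2 had 31 counts in BDL and 25 in sham, Trpm5 had 6 in BDL and 2 in sham, Tas1r3 had 3 in BDL and 0 in sham, and Tas1r2 had 2 in BDL and 0 in sham libraries. The part of these markers in the receptor counts was not tested. These lists summed to 0 to 4 olfactory, 0 to 6 vomeronasal and 0 to 18 taste counts per BDL library of day 8, and to 0 to 5, 0 to 9 and 3 to 16 per sham library.

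At the rate of the receptor genes, all genes of the table together would hold a small part of a library's counts. If every gene of the table had received counts at the rate of the 172 genes per kb of exon, these would have made up 0.0292% to 1.53% of a BDL library of day 15 and at most 0.0373% of a sham library of that day. At the Olfr rate the range in BDL libraries of day 15 was 0.342% to 6.38%. This is arithmetic on exon length and carries no statement about the origin of the reads.

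For 10 hepatocyte genes the observed counts lay far above either rate. In the pooled BDL libraries of day 15, Alb, which encodes albumin, had 5861 counts, where the rate of the 172 genes gives 0.377 and the Olfr rate 1.39. Apob, a long gene that encodes the structural protein of very low density lipoprotein, had 1932 counts, where these rates give 2.24 and 8.25. The lowest of the 10, Ttr, which encodes the thyroid hormone carrier transthyretin, had 135 counts, where they give 0.191 and 0.703. Among the 143 genes called higher in BDL at day 15, the ratio of observed counts to those at the Olfr rate had a median of 132 and a minimum of 2.74, with 3 genes under 5. For the 114 genes called higher at day 8 the median was 694 and the minimum 46.8. These genes passed the filter on low counts and were called for high counts in the same libraries. High ratios follow in part from that choice, and the origin of the reads was not tested.

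**Figure D5:**
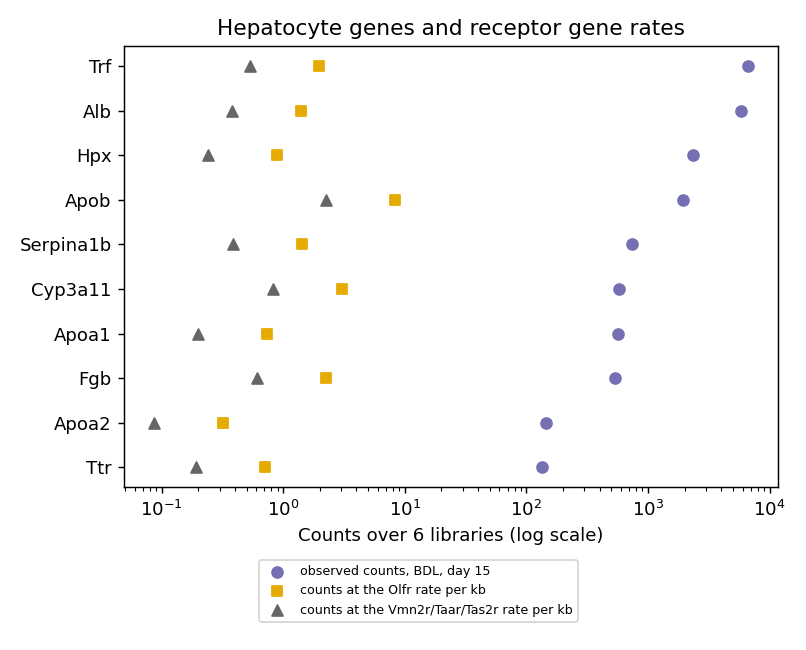
Counts of 10 hepatocyte genes summed over the 6 BDL libraries of day 15 (circles, log scale), beside the counts that each gene's exon length gives at the Olfr rate (squares) and at the rate of the Vmn2r, Taar and Tas2r genes (triangles). Observed counts run from 135 to 6671, and the counts at either rate stay at 8.25 or less.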

How the data were processed

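Per the submitters' processing notes, reads were handled with STAR and RSEM. The notes name the human build hg38, while the identifiers are those of mouse genes, so the alignment build is not established here. The authors deposited expected counts per gene, which were whole numbers as listed. All coordinates, lengths and sequences come from GENCODE M21 (GRCm38), where 21860 of 21960 identifiers were found.

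The members and lists were chosen with earlier results of these data known. Counts were summed per library and divided by the library's total (CPM, of the counts in this table). Genes were tested with edgeR 4.0.16 (R 4.3.3, quasi-likelihood, TMM, filterByExpr with a minimum count of 10, all 24 libraries, 1 mean per group, Benjamini-Hochberg adjustment, threshold 0.05), tested first on simulated data. DESeq2 1.42.0 was an alternative. Olfr CPM, Vmn1r CPM and the number of genes detected were compared by exact permutation tests (scipy 1.17.1). The number of genes detected includes the members. The paired form of these tests at day 8, and those without Vmn1r58 or without single libraries, were added after seeing the data. Intervals and floors of 3 counts cover counting error only, since reads carry no molecular identifiers. Total counts were 101733 to 937963, and single members had at most a few counts per library.

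Named members were the 10 with most counts and the 3 with most counts of each family. The rule also asked for the 5 with most counts per kb among members of at least 20 counts, of which there were 0, and Vmn2r57 was named after its values were seen. From the signalling list, the 5 with most counts were named. The labels number the samples 1 to 6 per group but do not state separate animals for a number, so p-values measure the spread between these samples. Deviations from group means correlated between same-numbered BDL and sham libraries by 0.165 to 0.327 at day 8 (6 of 6 over 0.1) and by -0.031 to 0.113 at day 15 (1 of 6). By a criterion of 0.1 in every pair, equal numbers were taken as pairs at day 8 only, which rests on the data and not on the labels. At day 8 the same-numbered sham library correlated best with BDL libraries 2, 3 and 4, but not with 1, 5 and 6. Libraries 1 to 3 were shallower than 4 to 6 in both day 8 groups, and the part of depth in these correlations was not tested. Paired results at day 8 hold only if the numbers do mark pairs. With the number as a replicate block, 202 genes were called at day 8 in place of 129, and the log2 difference of the summed share kept its value of 1.05 with an SE of 1.09.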

Additional observations from a re-analysis of the deposited data

Results flagged for a closer look

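Some libraries lay far from the other 5 of their group. Chance marks about 1 in 20 groups in this way where values are continuous and normally distributed. That rate does not hold for sparse counts, since a group with counts in 1 library alone is always marked. BDL day 8 library 3 stood apart in CPM of the 172 receptor genes (59.2), of Olfr genes (1144) and of Vmn1r genes (52.6), so 3 separate gene families marked the same library. In the receptor genes, sham library 2 of day 8 stood apart with 3.70 CPM and sham library 5 of day 15 with 3.85 CPM, each from 1 count where most of the group had 0. In Vmn1r genes, sham library 5 of day 8 stood apart with 3.73 CPM, from 2 counts. The origin of these counts was not tested.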

How the results depend on the processing

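The summed share was compared on the log2 scale over the fits that leave out 1 library. The difference between BDL and sham was 3.92 to 4.95 at day 15 and 0.26 to 1.63 at day 8. The difference between days was 2.64 to 4.00, and day 15 against day 8 was 3.00 to 4.37 in BDL. In sham it was 0.10 to 0.67, values that depend on the counts added and are no measured rise. With Taar genes alone the log2 difference between BDL and sham was 0.055 at day 15. It was 0.20 for the difference between days and 0.83 for BDL over time. With Tas2r genes alone it was 1.63 at day 15. These sums hold few counts. The replicate block left the values at 4.27 (SE 0.83) for day 15 and 3.22 (SE 1.38) between days. At day 8, Taar genes alone and libraries 4 to 6 alone gave values just below 0. The members' rate over the Krtap rate was 0.635, and 1.04 by coding length, an alternative chosen after seeing the data. Without the 3 genes of most counts it was 1.10, and for Defb 2.40 in place of 0.647 and for Vmn1r 1.22 in place of 0.696. Krtap genes held only 12 counts and Defb genes 5, so their ratios rest on very few counts. The cause was not tested.

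No setting called a member, but only the fit with no filter held any, 88 of them. The other settings tested none and so could not call a member. Genes called between BDL and sham at day 8 numbered 129, against 298 with no filter and 202 with the replicate block, and without TMM 56 were higher and 77 lower in place of 114 and 15. At day 15 they numbered 187, against 688 with no filter and 287 without TMM (115 higher and 172 lower in place of 143 and 44). The difference between days called 0 (234 at an unadjusted p under 0.05), against 1 without TMM, 1 with DESeq2, 1 with the replicate block and 51 with no filter. BDL over time called 179, against 652 with no filter, and sham over time 0 (439 unadjusted), against 5 with DESeq2 and 150 with no filter. Leaving out 1 library gave 58 to 159 at day 8, 117 to 260 at day 15, 0 to 2 between days, 36 to 359 for BDL and 0 to 1 for sham over time. The count moved by over 1.5 times at day 8 without BDL library 2 (75) or sham library 2 (82), 3 (85), 4 (58) or 5 (59), at day 15 without BDL library 5 (117), and for BDL over time without day 8 library 3 (359), 4 (64), 5 (57) or 6 (90) or day 15 library 1 (67), 2 (94), 4 (110) or 5 (36). No block could be fitted over time, since the numbers do not link the days. With no filter, the smallest adjusted p of a member was 0.0642 in edgeR (Vmn2r29, BDL over time).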

Other observations

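Among the 204 Vmn1r genes, Vmn1r58 (ENSMUSG00000078808, GRCm38 chromosome 7, 5401681 to 5413396, minus strand) held 91 counts, and was chosen here after its values were seen. It had 21, 4, 8, 5, 15 and 14 counts in BDL libraries 1 to 6 of day 15 and 0 in each sham library of that day. At day 8 it had 1, 1, 2, 3, 11 and 4 counts in BDL libraries and 2 counts in sham library 5, with 0 in the other 5 sham libraries. Its highest BDL libraries were not those with the most Vmn2r, Taar and Tas2r counts: at day 15 library 2 had the most of these and the fewest Vmn1r58 counts, and at day 8 library 5 had 11 Vmn1r58 counts and none of these.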
